A study of Mus musculus with 18 samples.

Results

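The mitotic spindle and checkpoint genes are 41 genes for mitotic cyclins and kinases, the spindle checkpoint, the kinetochore, the spindle and cytokinesis, together with the transcription factor gene Foxm1. They were listed by name, with no rule on measured values but with earlier results of these data known, and other mitotic kinesins than Cenpe are not among them. All 41 were among the 16383 rows of the deposited table, and all 41 passed the filter on low values. RNA-seq measured them in mouse pancreatic ductal adenocarcinoma (PDAC) cell lines grown from spontaneous metastases, after lentiviral knockdown of Gstt1, which encodes a glutathione S-transferase of the theta class.

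Cells enter mitosis when the complex of cyclin B and the kinase Cdk1 is activated. The spindle checkpoint then holds the anaphase-promoting complex inactive until the kinetochore of every chromosome is attached to microtubules. Once it is released, the complex with its activator Cdc20 has cyclin B and securin destroyed, separase cuts cohesin, and a contractile ring divides the cell. The RNAs of many of these genes peak in G2 and mitosis under Foxm1, B-Myb and the MuvB complex, and are held low in resting cells by the DREAM complex, so that in bulk RNA their level follows the share of cycling cells in a culture. In bulk libraries more cells in mitosis and more RNA per mitotic cell cannot be told apart.

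The knockdown cultures carried Gstt1 shRNA 1 (6 libraries) or Gstt1 shRNA 2 (4 libraries), and the controls carried a hairpin labelled NT (8 libraries). Of the lines, 42-3 and 6-2 derive from metastases in the lung, and 42-2, G45-2, 6-3 and 13-2 from metastases in the liver. The genotype labels name SIRT6F/F, p48+ and Tp53F/+ alleles in 5 lines (written p48-Cre and p53F/+ in the first 42-3 set). In line 13-2 they name p48+ and Tp53F/+ but no SIRT6 allele, so that every group, controls included, shares the p48 and p53 alleles. A p48-Cre allele drives recombination in pancreatic cells. Every culture, controls included, was infected, kept under puromycin for 48 h and harvested after it had been split. The libraries pair up in 8 culture sets (3 lung, 5 liver) of 1 NT control and the knockdowns of the same line. 2 sets each come from 42-3 and 42-2, called first and second by their library codes, and sets G45-2 and 6-3 hold both hairpins.

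Library totals were 8411436 to 25552912 reads (median 14612666), so that 3 reads stand for 0.117 to 0.357 CPM (read counts scaled to a common library total). Every member had at least 108 reads in each library, except Pttg1 with 1 read in the 13-2 control. Gstt1 was at 0.0687 to 23.9 CPM in knockdown libraries and 0.616 to 52.5 CPM in controls. It was lower in 8 of 8 sets (mean log2 difference -3.21 ± 1.85 SD, n = 8, two-sided exact sign-flip permutation p = 0.00781, the smallest possible). By cell line it was lower in 6 of 6 (mean -3.30, the same permutation test, p = 0.03125, the smallest possible). The lowest controls were those of line 42-2, at 2.67 CPM in the first set and 0.616 CPM in the second. In 5 of the 8 sets at least 2 of 7 transcripts used to tell lines apart (Xist, Y-linked genes, Cdkn2a and Cdkn2b), called identity transcripts here, differed 10-fold or more between knockdown and control at a level of 10 CPM. These sets are 42-3 first, 42-3 second, 6-2, 42-2 first and 13-2, and at 1 CPM 42-2 second joins them. In lines 6-3 and 13-2 knockdown and control carry different library codes. Keratin and other ductal markers (8 of 8 in the table) summed to 377 to 7746 CPM in knockdown libraries and 540 to 15185 CPM in controls, and were higher in 1 of 8 sets. Fibroblast markers (7 of 8) summed to 4.08 to 6452 CPM in knockdown libraries and 5.79 to 2917 CPM in controls, and were higher in 7 of 8 sets, with Dcn at 0 in 9 libraries and Lum at 0 in 15. Col3a1 alone reached 6083 CPM in knockdown libraries and 2681 CPM in controls. The highest knockdown value was above the highest control for Col1a1 (240 against 133 CPM) and Pdgfrb (329 against 181 CPM). It was below it for Pdgfra (55.0 against 82.8 CPM) and Col1a2 (5.57 against 8.75 CPM). Of the lists for macrophages and leukocytes (3 of 8 in the table), endothelium (5 of 5), hepatocytes (2 of 5) and lung epithelium (1 of 5), none summed to more than 40.3 CPM in any library. The part of these differences in the results below was not tested.

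With Gstt1 knocked down, all 41 mitotic genes had a fitted log2 change above 0, as had 47.0% of all 12931 genes tested. Their median log2 change was 0.95 (range 0.54 to 1.64), against -0.03 for all genes tested. No member passed an adjusted p of 0.05 in limma (0.0387% of all genes passed), and none passed in edgeR's quasi-likelihood test on the recovered reads. At an unadjusted p under 0.05, limma had 30 of 41 members higher and 0 lower, and in edgeR 28 were higher. Over all genes the limma shares were 7.05% higher and 10.1% lower. The 30 became 13 without set 6-3 (557 of all 12736 genes were higher) and 16 without set G45-2 (758 of 12734). Without both lines 6-3 and 13-2 the count was 9 (524 of 12562), the median was 0.62 and 40 of 41 were above 0. Without the 5 sets that differ in identity transcripts, only the liver sets 42-2 second, G45-2 and 6-3 remain. There the median was 1.27, all 41 stayed above 0 and 38 reached an unadjusted p under 0.05. Over all 11723 genes of that fit 666 were higher at this limit. Without 42-2 second as well, which leaves only G45-2 and 6-3, the median was 1.63 and the count was 40 (811 of all 11334 genes).

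The culture sets differed widely. The median log2 difference over the 41 genes was -1.07 in 42-3 first, -0.16 in 42-3 second and 0.97 in 6-2, the lung sets. In the liver sets it was 2.18 in 42-2 first, 0.26 in 42-2 second, 1.22 in G45-2, 1.99 in 6-3 and 2.12 in 13-2. The number of members higher in knockdown was 4 of 41 in 42-3 first and 19 of 41 in 42-3 second, 40 in 6-2, 37 in 42-2 second and all 41 in the other four. By gene, 4 members were higher in 8 of 8 sets, 15 in 7, 18 in 6, 3 in 5 (Aurkb, Birc5 and Top2a) and 1 in 4 (Pttg1). The share of genes higher in 8 of 8 sets was 1.34% over all genes tested. The plot of differences by library shows these columns and the few rows that depart from them.

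**Figure D1:**
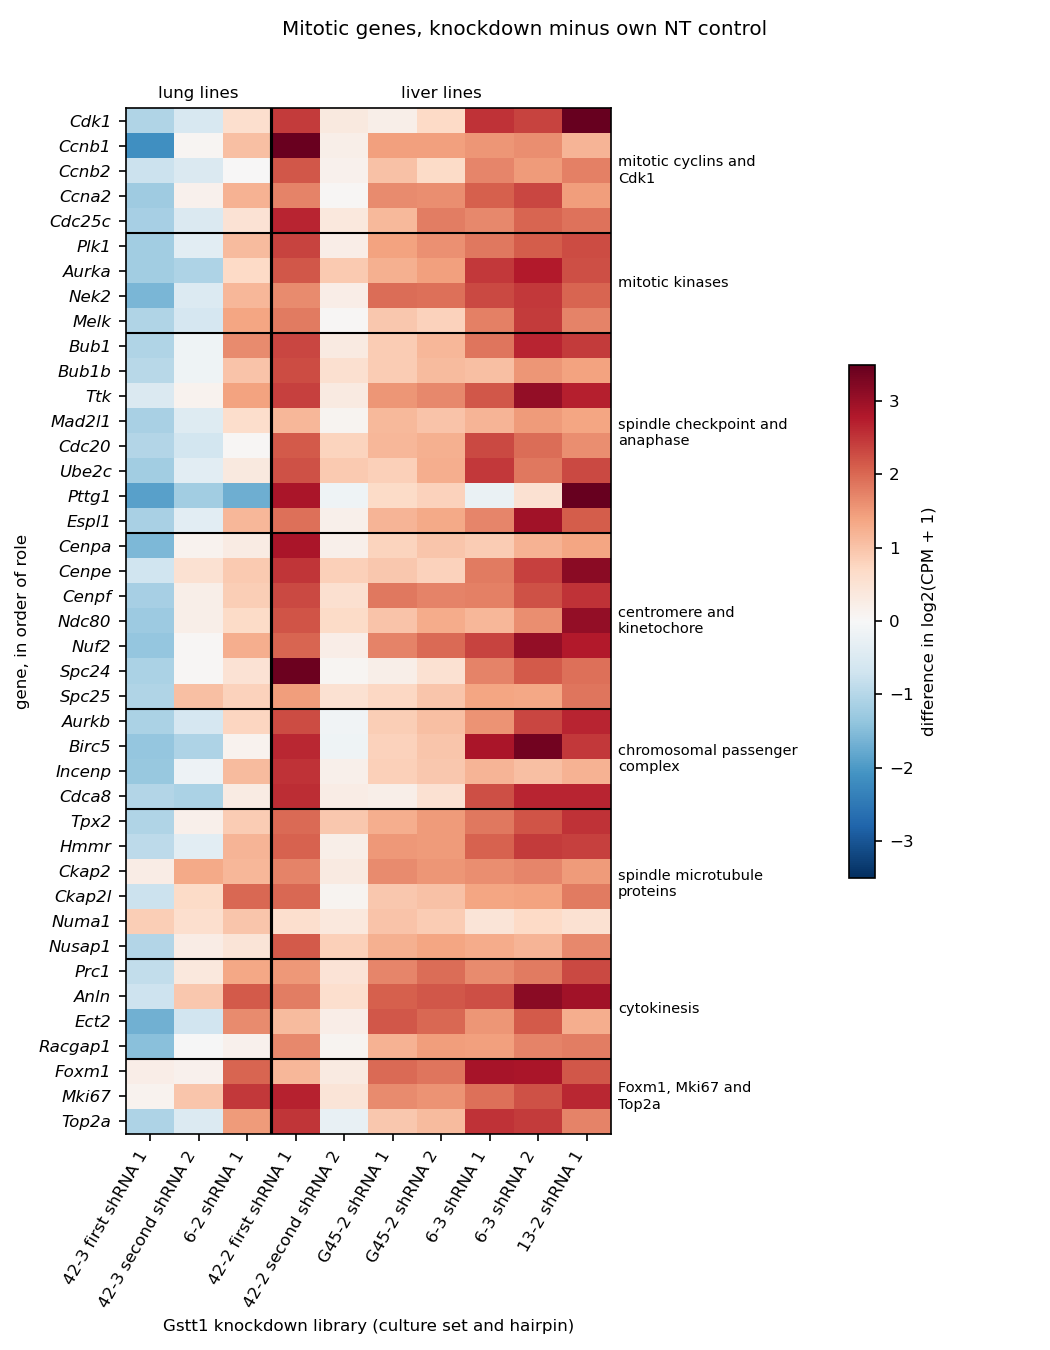
Difference in log2(CPM + 1) between each of the 10 knockdown libraries (columns, lung lines left of the line, liver lines right) and the NT control of its own set, for the 41 genes (rows, grouped by role; red is higher in knockdown, blue lower, and the scale ends at 3.5). The 42-3 first column is blue except for Ckap2, Numa1, Foxm1 and Mki67, and the 42-2 first, 6-3 and 13-2 columns are the deepest red; the 13-2 values of Cdk1 (3.61) and Pttg1 (6.18) lie beyond the scale.

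Libraries with like falls of Gstt1 differed in their mitotic genes, and a relation to the Gstt1 level was not tested. In 42-3 first, Gstt1 was at 0.938% of its control level and 4 of 41 members were higher (47.9% of all genes). In 6-3 with shRNA 2, Gstt1 was at 0.982% of its control level and all 41 were higher (45.7% of all genes), with a median of 2.16. In the same set with shRNA 1, Gstt1 was at 75.4% and 40 of 41 members were higher (57.7% of all genes), with a median of 1.76. In G45-2 the median was 1.30 with shRNA 2, where Gstt1 was at 11.8%, and 1.12 with shRNA 1, where Gstt1 was at 54.5%. Controls of line 42-2 held little Gstt1, 2.67 CPM (first) and 0.616 CPM (second), against 24.3 to 52.5 CPM in other controls. The medians were 2.18 in 42-2 first and 0.26 in 42-2 second, with Gstt1 at 14.0% and 11.2% of its control level.

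The promoters of these genes share letters. Genes that peak in G2 and mitosis are known to carry the cell cycle genes homology region (CHR), bound by MuvB, and CCAAT boxes, bound by NF-Y. RefSeq promoters (GRCm38.p6, 250 bases before to 50 after the transcript start) were matched for 34 of 41 members, which have 36 promoters. The CHR letters TTTGAA, on either strand, were in 25 of 36 (69.4%), against 17.9% of all 32851 promoters of the table. The letters CCAAT, on either strand, were in 27 of 36 (75.0%), against 37.4%, and 19 of 36 (52.8%) held at least 2 of them, against 11.7%. Both motifs were in 23 of 36 (63.9%), against 6.95%, and neither in 7 (19.4%), against 51.7%. The median position was 3 bases after the start for CHR (33 matches, -179 to 42) and 65 bases before it for CCAAT (65 matches, -228 to 19). Ect2 and Prc1 have 2 promoters each, and their matches recur at a constant shift, so they are counted once for each promoter. A match is a run of letters and not a measured site. Promoters not matched were those of Spc24, Tpx2, Incenp, Aurkb, Cdc25c, Ccna2 and Foxm1.

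Below are the promoters of the 2 members of smallest p of each kind, to show the letters beside the responses. Capitals mark TTTGAA (or TTCAAA) and CCAAT (or ATTGG), which do not overlap in these sequences. The Ckap2 promoter, chr8:22185770-22186069 (minus strand), has 1 CHR and 1 CCAAT, and that of Mki67, chr7:135716330-135716629 (minus strand), has 2 CHR and 3 CCAAT. The Cenpe promoter, chr3:135212313-135212612 (plus strand), has 1 CCAAT and that of Bub1, chr2:127831810-127832109 (minus strand), has 2, both without CHR. The windows of Numa1, chr7:101969593-101969892 (plus strand), and Nusap1, chr2:119618048-119618347 (plus strand), have neither. All are read 5′ to 3′ on the strand of the gene.
Ckap2: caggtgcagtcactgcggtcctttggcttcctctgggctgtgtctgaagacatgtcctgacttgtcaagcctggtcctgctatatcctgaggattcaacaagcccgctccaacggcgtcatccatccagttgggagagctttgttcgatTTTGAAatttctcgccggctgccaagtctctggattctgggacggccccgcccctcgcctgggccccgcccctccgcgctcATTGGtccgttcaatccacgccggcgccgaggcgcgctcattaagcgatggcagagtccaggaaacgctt
Mki67: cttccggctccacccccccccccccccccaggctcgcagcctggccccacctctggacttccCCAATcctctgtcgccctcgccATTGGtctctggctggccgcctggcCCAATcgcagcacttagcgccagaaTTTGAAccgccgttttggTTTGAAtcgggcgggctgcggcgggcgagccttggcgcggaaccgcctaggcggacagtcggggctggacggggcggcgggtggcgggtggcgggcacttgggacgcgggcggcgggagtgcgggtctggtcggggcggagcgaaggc
Cenpe: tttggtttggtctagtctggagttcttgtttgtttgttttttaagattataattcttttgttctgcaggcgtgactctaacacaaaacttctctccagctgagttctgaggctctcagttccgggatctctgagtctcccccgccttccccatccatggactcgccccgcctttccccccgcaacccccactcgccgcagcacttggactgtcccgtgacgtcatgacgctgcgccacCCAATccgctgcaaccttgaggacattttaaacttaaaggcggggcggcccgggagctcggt
Bub1: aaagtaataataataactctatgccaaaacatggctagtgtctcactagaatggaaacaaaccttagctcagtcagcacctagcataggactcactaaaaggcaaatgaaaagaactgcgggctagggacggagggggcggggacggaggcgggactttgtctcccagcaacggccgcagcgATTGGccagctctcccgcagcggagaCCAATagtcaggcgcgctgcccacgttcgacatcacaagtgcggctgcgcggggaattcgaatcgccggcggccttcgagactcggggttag
Numa1: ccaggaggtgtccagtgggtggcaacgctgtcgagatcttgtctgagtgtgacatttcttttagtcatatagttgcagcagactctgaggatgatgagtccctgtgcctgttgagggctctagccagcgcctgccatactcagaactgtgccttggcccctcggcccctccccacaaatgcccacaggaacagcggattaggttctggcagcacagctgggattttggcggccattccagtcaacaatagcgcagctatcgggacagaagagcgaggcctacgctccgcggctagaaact
Nusap1: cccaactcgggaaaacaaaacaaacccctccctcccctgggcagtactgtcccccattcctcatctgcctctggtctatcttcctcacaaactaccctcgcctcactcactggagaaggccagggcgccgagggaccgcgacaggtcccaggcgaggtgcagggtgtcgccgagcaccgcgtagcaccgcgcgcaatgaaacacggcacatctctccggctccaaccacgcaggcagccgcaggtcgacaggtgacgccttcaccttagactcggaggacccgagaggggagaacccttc

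**Figure D2:**
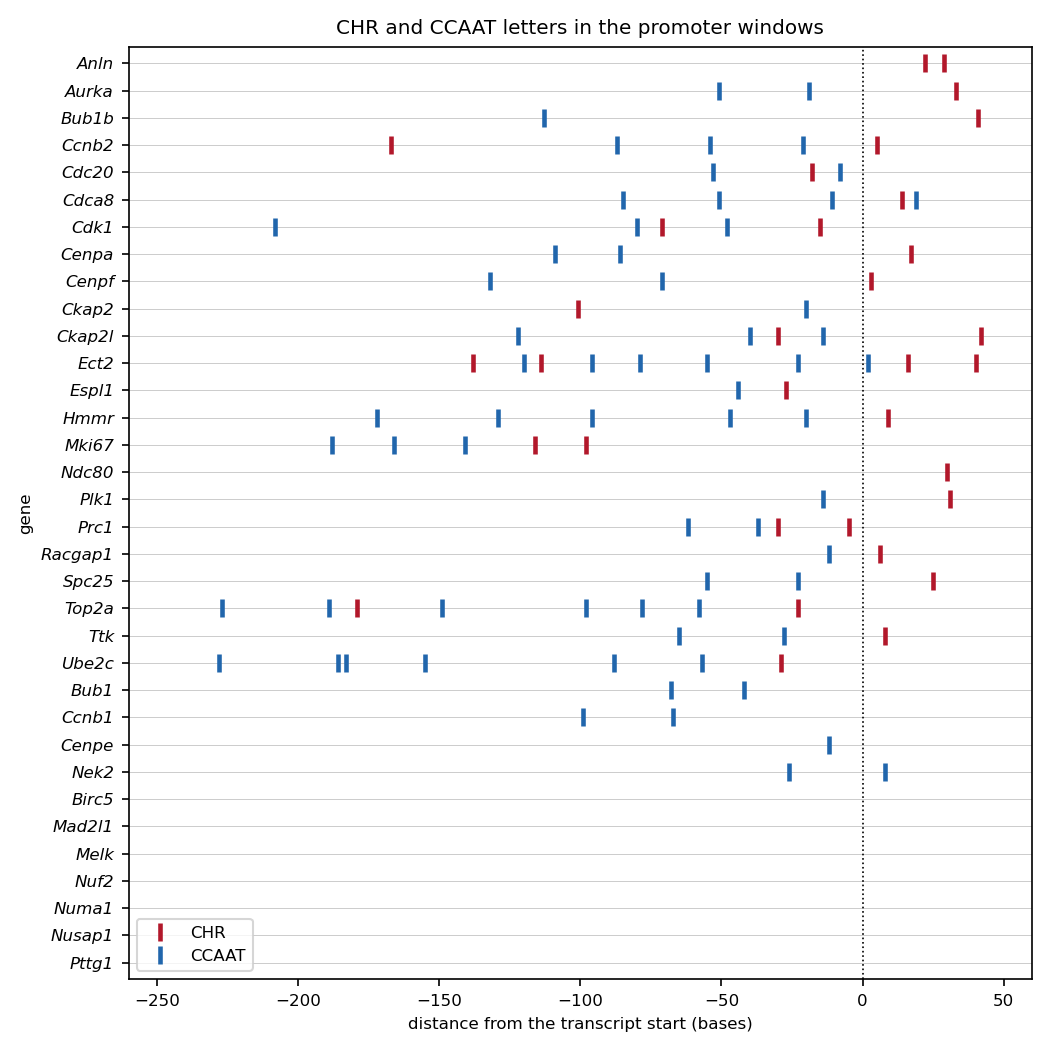
Position of the CHR letters (red) and the CCAAT letters (blue), either strand, in bases from the transcript start (0, dotted line), for the 34 members with a RefSeq promoter, the promoters of a gene with 2 being drawn on 1 row. Matches of those genes (Ect2 and Prc1) therefore appear once for each promoter. CCAAT letters lie mostly before the start (median -65) and CHR letters around it (median 3), and the 7 lowest rows have neither.

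The mitotic cyclins and Cdk1 comprise Cdk1, the kinase of mitotic entry, its partners Ccnb1, Ccnb2 and Ccna2, and Cdc25c, a phosphatase that activates Cdk1. All 5 had a log2 change above 0 (median 0.95), and 3 of 5 reached an unadjusted p under 0.05. Cdk1 was at 82.1 to 331 CPM in knockdown libraries (median 193) and 16.9 to 220 CPM in controls (median 139). The groups overlapped widely, and only 3 of 10 knockdown libraries lay above the highest control. Its log2 change was 1.01 ± 0.45 (SE; limma adjusted p = 0.282), higher in 6 of 8 sets, and 0.36 without lines 6-3 and 13-2. Ccna2, which carries cells from S phase into mitosis, was at 140 to 414 CPM in knockdown libraries (median 329) and 60.2 to 336 CPM in controls (median 148), with a log2 change of 0.97 ± 0.34 (adjusted p = 0.189). Ccnb1 was at 24.1 to 177 CPM in knockdown libraries (median 122) and 14.1 to 109.6 CPM in controls (median 66.5). The lowest knockdown value of Ccnb1 was that of 42-3 first, and its log2 change was 0.88 ± 0.44 (adjusted p = 0.330). Cdc25c was at 16.5 to 67.0 CPM in knockdown libraries (median 38.8) and 8.82 to 45.2 CPM in controls (median 22.1), with a log2 change of 0.95 ± 0.39 (adjusted p = 0.250). Without lines 6-3 and 13-2 the estimates were 0.63 for Ccna2 and 0.60 for Cdc25c, and without 42-2 first that of Ccnb1 was 0.58. Ccnb2 had a log2 change of 0.65, and pseudogenes of Ccnb1 and Ccnb2 are annotated that could share their reads.

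The mitotic kinases are Plk1 (centrosome maturation and mitotic entry), Aurka (spindle poles), Nek2 (centrosome separation) and Melk. All 4 were above 0 (median 1.01) and all 4 reached an unadjusted p under 0.05. Plk1 was at 60.5 to 231 CPM in knockdown libraries (median 152) and 19.7 to 141 CPM in controls (median 70.2), a log2 change of 1.02 ± 0.37 (limma adjusted p = 0.203). Nek2 was at 48.1 to 195 CPM in knockdown libraries (median 111) and 19.7 to 148 CPM in controls (median 58.6), a log2 change of 0.99 ± 0.40 (adjusted p = 0.239). Melk was at 37.2 to 119 CPM in knockdown libraries (median 77.6) and 15.2 to 78.0 CPM in controls (median 50.4), a log2 change of 0.81 ± 0.35 (adjusted p = 0.271). In each of these kinases the 42-3 first and 42-3 second knockdowns were below their own controls, and the 13-2, 6-3 and 42-2 first controls were the lowest controls. Without lines 6-3 and 13-2 the estimates were 0.63 for Plk1, 0.55 for Nek2 and 0.39 for Melk, and that of Melk was 0.51 without 6-3 alone. Aurka had a log2 change of 1.02.

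Of the 8 genes of the spindle checkpoint and of anaphase, 8 had a log2 change above 0 (median 0.89) and 6 reached an unadjusted p under 0.05. Ttk encodes Mps1, the kinase that starts checkpoint signalling at unattached kinetochores. It was at 35.9 to 106 CPM in knockdown libraries (median 72.2) and 7.81 to 55.2 CPM in controls (median 31.8), with 8 of 10 knockdown libraries above the highest control. Its log2 change was 1.39 ± 0.37 (limma adjusted p = 0.123), higher in 7 of 8 sets. Bub1, a checkpoint kinase, was at 71.3 to 236 CPM in knockdown libraries (median 134) and 18.7 to 150.5 CPM in controls (median 75.9), with a log2 change of 1.13 ± 0.38 (adjusted p = 0.178). Without lines 6-3 and 13-2 the estimates were 0.90 for Ttk and 0.68 for Bub1. The promoter of Bub1 is one of the pair printed that hold CCAAT without CHR. Bub1b (BubR1), Mad2l1 (Mad2), Cdc20, Ube2c (a ubiquitin-conjugating enzyme of the anaphase-promoting complex) and Espl1 (separase) had log2 changes of 0.83, 0.55, 0.83, 0.95 and 1.01.

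Pttg1, which encodes securin, the inhibitor of separase, departed from the rest. It was at 26.2 to 199.9 CPM in knockdown libraries (median 84.9) and 0.0723 to 168 CPM in controls (median 83.4). The lowest control was 13-2 with 1 read, and the next, 42-2 first, was at 26.9 CPM. In 13-2 the knockdown was at 76.7 CPM. The lung knockdowns were all below their controls, at 26.2, 71.5 and 40.9 CPM in 42-3 first, 42-3 second and 6-2, whose controls were at 100.3, 168 and 135 CPM. The log2 change was 0.54 ± 0.73 (limma adjusted p = 0.744, the largest of the 41), and it was -0.11 without 13-2. It was 0.29 without 42-2 first, 0.87 without 42-3 first and 0.85 without 6-2. The log2 difference in 13-2 rests on that read.

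The centromere and kinetochore genes numbered 7, all above 0 (median 1.03), and 5 reached an unadjusted p under 0.05. Cenpe, the motor that carries chromosomes to the spindle equator, was at 56.9 to 217 CPM in knockdown libraries (median 153) and 9.84 to 96.8 CPM in controls (median 79.0). Of the 10 knockdown libraries 8 lay above the highest control, the exceptions being those of 42-3 first and 13-2. Its log2 change was 1.27 ± 0.36 (limma adjusted p = 0.129). Spc25, a subunit of the Ndc80 complex that grips microtubules, was at 37.3 to 87.1 CPM in knockdown libraries (median 70.0) and 16.5 to 79.2 CPM in controls (median 38.0), with a log2 change of 0.89 ± 0.27 (adjusted p = 0.153). Cenpa, the histone H3 variant of centromeres, was at 31.2 to 266 CPM in knockdown libraries (median 136) and 36.0 to 135 CPM in controls (median 88.0), with a log2 change of 0.67 ± 0.36 (adjusted p = 0.357), which was 0.41 without 42-2 first. That of Cenpe was 0.81 without lines 6-3 and 13-2. The other subunits of the Ndc80 complex, Ndc80, Nuf2 and Spc24, had log2 changes of 1.03, 1.28 and 0.89, and the kinetochore protein gene Cenpf one of 1.18.

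The chromosomal passenger complex corrects faulty attachments and later guides cytokinesis. Its kinase Aurkb and the subunits Birc5 (survivin), Incenp and Cdca8 (borealin) were above 0 (median 0.84), and 1 of 4 reached an unadjusted p under 0.05. Aurkb was at 57.8 to 189 CPM in knockdown libraries (median 136) and 17.3 to 176 CPM in controls (median 79.3), with a log2 change of 0.87 ± 0.40 (limma adjusted p = 0.291). Incenp was at 46.8 to 320 CPM in knockdown libraries (median 173) and 54.4 to 177 CPM in controls (median 101), with a log2 change of 0.68 ± 0.32 (adjusted p = 0.305). Birc5 was at 55.0 to 257 CPM in knockdown libraries (median 152) and 18.7 to 182 CPM in controls (median 112), with a log2 change of 0.89 ± 0.49 (adjusted p = 0.378). The groups overlapped in all 3, and Aurkb and Birc5 were higher in 5 of 8 sets. Without lines 6-3 and 13-2 the estimates were 0.36 for Aurkb and 0.18 for Birc5, and that of Birc5 was 0.42 without 6-3 alone. Cdca8 had a log2 change of 0.82.

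The spindle microtubule proteins held both of the members that were most even across libraries. All 6 were above 0 (median 1.04) and all 6 reached an unadjusted p under 0.05. Ckap2, a protein that stabilizes spindle microtubules, was at 91.3 to 144 CPM in knockdown libraries (median 118) and 33.0 to 79.6 CPM in controls (median 46.2). Numa1 (NuMA), which focuses microtubules at the spindle poles and also sits in the interphase nucleus, was at 244 to 412 CPM in knockdown libraries (median 317) and 168 to 233 CPM in controls (median 194). In both genes every knockdown library lay above every control, which held for 3 of the 41 members (Foxm1 is the other) and for 0.101% of all genes tested.

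Ckap2 had a log2 change of 1.22 ± 0.20 and the smallest adjusted p of the 41 (0.0552, limma). With the cell line as the replicate block Ckap2 (1.22), Mki67 (1.63) and Numa1 (0.68) passed an adjusted p of 0.05, and without a block Anln (1.61) and Foxm1 (1.43) as well. Ckap2 and Mki67 also passed without 42-3 first. Within sets the Ckap2 level in knockdown was 1.20 to 3.36 times that of its control, the smallest ratios being those of 42-3 first (1.20) and 42-2 second (1.24). Numa1 had a log2 change of 0.68 ± 0.13 (adjusted p = 0.0820). Without the 5 sets that differ in identity transcripts the estimates were 1.31 for Ckap2 and 0.66 for Numa1. Hmmr, a spindle assembly factor, was at 62.3 to 215 CPM in knockdown libraries (median 154) and 17.0 to 139.8 CPM in controls (median 78.3), with a log2 change of 1.07 ± 0.36 (adjusted p = 0.178), which was 0.62 without lines 6-3 and 13-2. Tpx2 (an activator of Aurora A), Ckap2l and Nusap1 had log2 changes of 1.16, 1.01 and 0.89.

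The cytokinesis genes are Prc1, which bundles the microtubules of the central spindle, Anln (anillin), a scaffold of the contractile ring, and Ect2 and Racgap1, which act together to switch on the contractile ring. All 4 were above 0 (median 0.98), and 2 reached an unadjusted p under 0.05. Anln was at 198 to 644 CPM in knockdown libraries (median 486) and 63.5 to 327 CPM in controls (median 142). Of 10 knockdown libraries 8 lay above the highest control, and the log2 change of 1.64 ± 0.36 was the largest of the 41 (limma adjusted p = 0.0944). Prc1 was at 151 to 502 CPM in knockdown libraries (median 305) and 50.7 to 276 CPM in controls (median 145), with a log2 change of 1.14 ± 0.30 (adjusted p = 0.121). Ect2 was at 99.0 to 467 CPM in knockdown libraries (median 271) and 49.8 to 318 CPM in controls (median 125), with a log2 change of 0.82 ± 0.39 (adjusted p = 0.307). Its highest control was that of 42-3 first, and the knockdown of that set was the lowest of all 10. The Ect2 estimate was 0.52 without lines 6-3 and 13-2. Racgap1 had a log2 change of 0.71.

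Foxm1 encodes the transcription factor of the G2 and mitotic programme, Mki67 the proliferation marker Ki-67, which coats mitotic chromosomes, and Top2a the topoisomerase that untangles sister DNA. All 3 reached an unadjusted p under 0.05. Foxm1 was at 107 to 311 CPM in knockdown libraries (median 184) and 27.7 to 96.1 CPM in controls (median 72.5), with no overlap. Its log2 change was 1.40 ± 0.31 (limma adjusted p = 0.0944), and in 42-3 first, 42-3 second and 42-2 second the pairs lay close, at 112, 107 and 112 CPM in knockdown libraries against 95.3, 96.1 and 89.4 CPM in controls. Mki67 was at 107 to 382 CPM in knockdown libraries (median 243) and 29.7 to 119 CPM in controls (median 83.3). The 42-3 first knockdown was the only one of 10 below the highest control, and the log2 change was 1.60 ± 0.28 (adjusted p = 0.0692). Top2a was at 299 to 1357 CPM in knockdown libraries (median 635) and 117 to 667 CPM in controls (median 408), with a log2 change of 0.93 ± 0.39 (adjusted p = 0.251) and 5 of 8 sets higher, and with an estimate of 0.51 without lines 6-3 and 13-2 and 0.61 without 6-3 alone. Without the 5 sets that differ in identity transcripts the estimates were 1.89 for Foxm1 and 1.49 for Mki67. Exons of 13 members overlap another annotated gene, 11 on the opposite strand (Numa1 with Il18bp and Prc1 with Rccd1 among them) and 2 on the same strand (Foxm1 and Top2a), and the strand setting of the counting was not given in the sources used here.

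**Figure D3:**
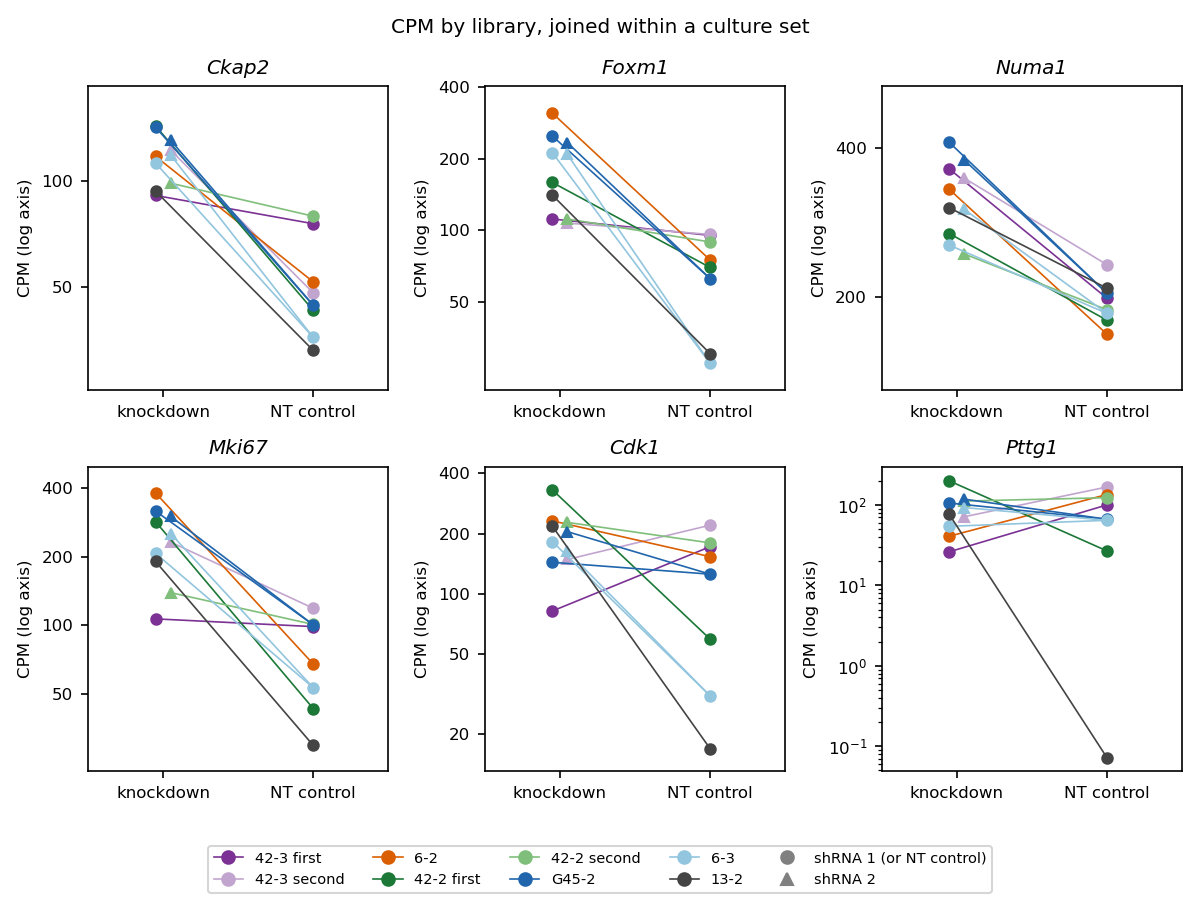
CPM (log axis) of 6 members in the 10 knockdown libraries (left in each panel; circles shRNA 1, triangles shRNA 2) and the 8 NT controls (right), joined within a culture set and coloured by set. Ckap2, Foxm1 and Numa1 do not overlap between the groups, Mki67 overlaps by 1 library, Cdk1 overlaps widely with lines going both ways, and the 13-2 control of Pttg1 lies at 0.0723 CPM.

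The low controls stood out in the level of the whole group. Summed over the 41 genes, the knockdown libraries were at 3286 to 9533 CPM (median 7400) and the controls at 1410 to 6254 CPM (median 4063). The 3 lowest sums were those of controls. In 13-2 the knockdown was at 5554 CPM against 1410 CPM in its control, and in 42-2 first at 9448 CPM against 2260 CPM. In 6-3 the knockdowns were at 8070 CPM (shRNA 2) and 6731 CPM (shRNA 1) against 1969 CPM in the control. In 42-3 first the knockdown was the lowest of the 10 (3286 CPM) and the control the highest of the 8 (6254 CPM). The controls of line 42-2 differed between its sets, at 2260 CPM in the first and 5445 CPM in the second. In 42-3 first, the fibroblast markers summed to 3877 CPM in the knockdown and 58.4 CPM in the control, and the ductal markers to 1489 CPM in the knockdown and 12343 CPM in the control. In 42-2 first the fibroblast markers summed to 27.8 CPM in the knockdown and 196 CPM in the control, and the ductal markers to 2441 CPM in the knockdown and 2480 CPM in the control. The fibroblast sum was higher in knockdown in 7 of 8 sets, among them 60.9 CPM in knockdowns against 5.79 CPM in the control of 6-3 and 1044 CPM against 516 CPM in G45-2. In 6-2, where 40 members were higher, the ductal sum was 1910 CPM in the knockdown and 15185 CPM in the control, and in 13-2 it was 6704 CPM in the knockdown and 2930 CPM in the control. Their part in the mitotic differences was not tested.

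**Figure D4:**
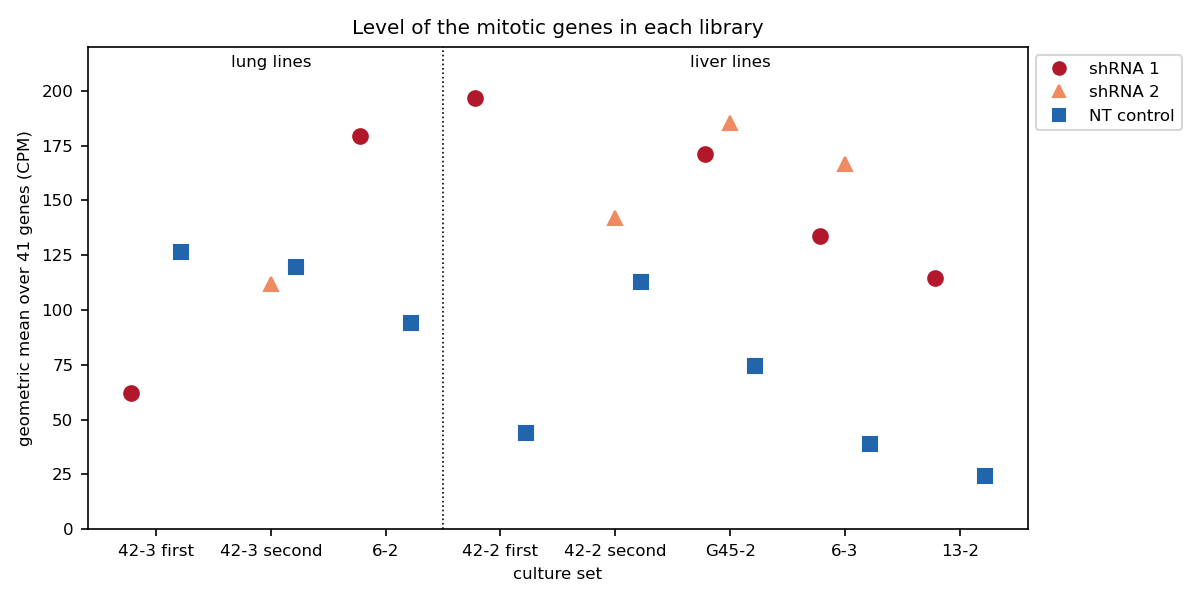
Geometric mean of CPM over the 41 genes in each library, by culture set (shRNA 1 circles, shRNA 2 triangles, NT control squares; lung lines left of the dotted line). Knockdown lies above control in 6-2 and the 5 liver sets and below it in both 42-3 sets, and the controls of 42-2 first, 6-3 and 13-2 are the lowest.

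Each hairpin was also set against the controls of its sets. With shRNA 1 all 41 members had a log2 change above 0 (49.0% of all genes), with a median of 1.03 against -0.01 for all genes. An unadjusted p under 0.05 was reached by 30, all higher (7.26% of all genes), and 0 passed after adjustment in limma (0.00% of all genes) or edgeR, where 25 were higher before adjustment. With shRNA 2 all 41 were above 0 (44.9% of all genes), with a median of 0.87 against -0.05. Here 14 were higher at an unadjusted p under 0.05 (2.15% of all genes) in limma and 14 in edgeR, and 0 passed in either. The 30 for shRNA 1 became 12 without 42-2 first (801 of all 12697 genes were higher) and 12 without 13-2 (872 of 12776). They became 15 without 6-3 (685 of 12736) and 18 without G45-2 (890 of 12734). The 14 for shRNA 2 became 3 without 6-3 (108 of 12736), 4 without G45-2 (155 of 12734) and 28 without 42-3 first (336 of 12756). The shRNA 2 median was 0.50 without lines 6-3 and 13-2, with 38 of 41 above 0.

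The members of smallest p were the same with either hairpin. Ckap2 had a log2 change of 1.17 ± 0.27 with shRNA 2 (SE; limma adjusted p = 0.715) and 1.26 ± 0.23 with shRNA 1 (adjusted p = 0.110). Mki67 had one of 1.39 ± 0.39 with shRNA 2 (adjusted p = 0.715) and 1.81 ± 0.33 with shRNA 1 (adjusted p = 0.110). Numa1 had one of 0.65 ± 0.18 with shRNA 2 (adjusted p = 0.715) and 0.71 ± 0.15 with shRNA 1 (adjusted p = 0.129). These comparisons share the controls of G45-2 and 6-3. Both come from 1 fit with 1 residual variance per gene, so their p-values and the order of the genes are not independent.

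Between shRNA 2 and shRNA 1 the fitted difference was above 0 in 6 members (44.5% of all genes) and below 0 in 35 (55.5%), with a median of -0.15 against -0.04 for all genes. No member reached an unadjusted p under 0.05 in either direction, in limma (0.217% of all genes were higher and 0.278% lower) or edgeR, and none passed after adjustment in either. The difference of smallest p was that of Mki67, Ccnb2 and Top2a, at -0.41 ± 0.45, -0.49 ± 0.49 and -0.48 ± 0.61 (SE). The direction moved with the sets kept, since 28 of 41 were above 0 without 42-3 second and 33 of 41 without the replicate block. In both sets that hold both hairpins the median was higher with shRNA 2, against the direction of the fit, at 1.30 with shRNA 2 and 1.12 with shRNA 1 in G45-2 and 2.16 with shRNA 2 and 1.76 with shRNA 1 in 6-3.

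On average the knockdown differences of the mitotic genes were lower in the lung sets than in the liver sets. The test of that difference passed for no member after adjustment. The mean of the set medians was -0.09 ± 1.02 in lung sets (SD, n = 3) and 1.55 ± 0.82 in liver sets (SD, n = 5). The lung sets come from only 2 lines, with medians of -1.07 and -0.16 in 42-3 and 0.97 in 6-2. The 6-2 median lay above that of the liver set 42-2 second (0.26). With 2 lung lines, line and site cannot be told apart. The interaction (lung minus liver) was below 0 in 40 of 41 members (49.2% of all genes), with a median of -1.71 against 0.02 for all genes. An unadjusted p under 0.05 was reached by 34, all lower (9.41% of all genes), and 0 passed after adjustment in limma (0.186% of all genes) or edgeR, where 32 were lower before adjustment. The 34 became 13 without 42-3 first, where 1608 of all 12756 genes reached that limit, 852 of them higher. They became 16 without lines 6-3 and 13-2 (1515 of 12562 genes, 762 of them higher). All 3 lung sets are among the 5 that differ in identity transcripts.

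Cdc20, the activator of the anaphase-promoting complex, had the smallest p of the interaction. Its knockdown minus control difference was -0.54 ± 0.55 in lung sets (SD, n = 3) and 1.58 ± 0.59 in liver sets (SD, n = 5), an interaction of -2.16 ± 0.38 (SE; limma adjusted p = 0.0580). In lung knockdowns Cdc20 was at 81.9, 133 and 170 CPM in 42-3 first, 42-3 second and 6-2, against 168, 208 and 164 CPM in their controls. Aurka differed by -0.53 ± 1.07 in lung sets and 1.86 ± 0.71 in liver sets, an interaction of -2.42 ± 0.52 (adjusted p = 0.0854). Ube2c differed by -0.42 ± 0.78 in lung sets and 1.73 ± 0.69 in liver sets, an interaction of -2.16 ± 0.47 (adjusted p = 0.0878). Numa1 was the exception, at 0.81 in lung sets and 0.60 in liver sets, and Ckap2 was at 0.92 and 1.36.

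**Figure D5:**
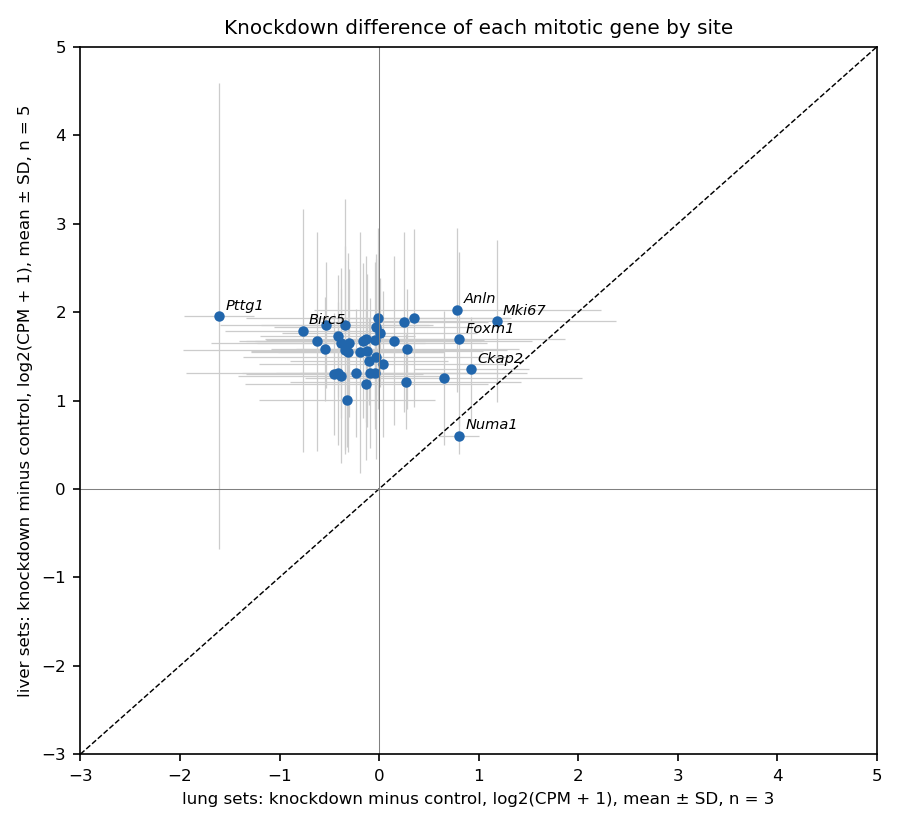
Mean knockdown minus control difference in log2(CPM + 1) of each of the 41 genes in the 3 lung sets (x axis) and the 5 liver sets (y axis), with SD bars; the dashed line marks equal values. All genes but Numa1 lie above the dashed line, and the lung means of most genes lie around 0.

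Among the NT controls most mitotic genes had higher levels in the lung lines, without passing after adjustment. Of 41 members 40 had a log2 difference above 0 (46.0% of all genes), lung over liver on line means, with a median of 1.17 against -0.05. An unadjusted p under 0.05 was reached by 22, all higher (6.43% of all genes), and 0 passed after adjustment in limma (0.0309% of all genes). In edgeR 0 passed and 16 were higher before adjustment (944 of all 12931 genes). That edgeR fit took the 8 NT controls as separate libraries, so the 2 controls each of 42-3 and 42-2 were not independent in it. For 11 members every lung control lay above every liver control (5.07% of all genes). The 22 became 15 without liver line 6-3, 25 without 42-2 and 30 without G45-2 (1031, 709 and 975 of all 12931 genes were higher). Leaving out a lung line keeps 1 lung line, whose spread cannot be measured. The median was then 1.02 without 42-3 and 1.37 without 6-2. This comparison uses the controls that also enter the knockdown differences, so they are not independent.

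Racgap1, which with a kinesin forms the centralspindlin complex, was at 336, 308 and 273 CPM in the lung controls (42-3 first, 42-3 second and 6-2). In the liver controls it was at 93.6, 265, 148, 83.5 and 72.8 CPM (42-2 first, 42-2 second, G45-2, 6-3 and 13-2). The log2 difference was 1.43 ± 0.36 (SE; limma adjusted p = 0.225). Cdc20 was at 164 to 208 CPM in lung controls and 37.2 to 120 CPM in liver controls, a difference of 1.41 ± 0.43 (adjusted p = 0.272). Cenpf was at 117 to 146 CPM in lung controls and 19.7 to 91.7 CPM in liver controls, a difference of 1.67 ± 0.52 (adjusted p = 0.283). The groups did not overlap in these 3 genes. Numa1, at 168 to 233 CPM in lung controls and 180 to 208 CPM in liver controls, differed by -0.04 ± 0.21, a sign that turned to 0.01 under median-ratio rescaling and to 0.09 in edgeR. By line, the median log2 level of the 41 genes was 6.96 in 42-3 and 6.61 in 6-2, against 6.30 in G45-2, 6.11 in 42-2, 5.35 in 6-3 and 4.72 in 13-2.

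Over all 18 libraries the members moved together. The Pearson correlation of each member's log2 level with the median of the other 40 had a median of 0.94, and 29 of 41 were at 0.9 or above. These values describe libraries that share lines, controls and depth. Tpx2 (0.98), Hmmr (0.97) and Ttk (0.97) followed the rest most closely. Numa1 followed it least (0.49), then Pttg1 (0.74), Ckap2 (0.82), Ect2 (0.83) and Foxm1 (0.83). Within the 8 controls the correlation of Numa1 was 0.11, and within the 10 knockdown libraries -0.20.

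Other genes of mitosis were taken from 7 further lists, none of whose members passed an adjusted p of 0.05 for the knockdown change in limma or edgeR. Over all genes tested 47.0% were above 0. At an unadjusted p under 0.05, 7.05% were higher and 10.1% lower. Of 28 other kinetochore and centromere genes, 28 were above 0 (median log2 change 0.61) and 10 reached an unadjusted p under 0.05. Casc5 (Knl1), the platform for Bub1 at kinetochores, averaged 79.1 ± 29.7 CPM in knockdown libraries and 32.1 ± 17.8 CPM in controls (SD, n = 10 and 8), log2 change 1.35 ± 0.31 (SE; limma adjusted p = 0.101). Hjurp, the chaperone of Cenpa, had one of 0.96 ± 0.25 (adjusted p = 0.119). Of 26 other periodic mitotic genes, 26 were above 0 (median 0.91) and 15 reached an unadjusted p under 0.05. Arhgap11a averaged 174 ± 47.3 CPM in knockdown libraries and 73.3 ± 28.7 CPM in controls, a log2 change of 1.26 ± 0.23 (adjusted p = 0.0701), higher in 8 of 8 sets. Mastl (Greatwall), the kinase that keeps a phosphatase off Cdk1 substrates, had one of 1.28 ± 0.30 (adjusted p = 0.101).

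The 14 subunits of the anaphase-promoting complex, the ligase that the checkpoint restrains, were split like all genes (47.0% above 0). Of them 7 were above 0 and 7 below, with a median of -0.01. At an unadjusted p under 0.05, 2 were higher (7.05% of all genes) and 0 lower (10.1%). The 2 were Anapc1 at 0.68 ± 0.21 and Anapc5 at 0.47 ± 0.16 (SE; limma adjusted p = 0.157 and 0.181). Of 16 condensin and cohesin subunits, which shape chromosomes and hold sisters together, 15 were above 0 (median 0.69) and 10 reached an unadjusted p under 0.05, led by Stag1 at 0.74 ± 0.20 and Ncapd3 at 0.91 ± 0.29. Of 13 MuvB, DREAM and NF-Y regulators, 10 were above 0 (median 0.26) and 5 reached an unadjusted p under 0.05, all higher (7.05% of all genes). Rbl1, which encodes the pocket protein p107, was at 1.06 ± 0.26, and Tfdp1, an E2F partner, at 0.57 ± 0.19.

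Of 14 E2F and G1 to S genes, 13 were above 0 (47.0% of all genes; median 0.48), and 7 were higher at an unadjusted p under 0.05 (7.05% of all genes). E2f7 and E2f8, E2F factors that repress transcription, had log2 changes of 1.80 ± 0.47 and 1.70 ± 0.51. E2f7 averaged 56.7 ± 26.2 CPM in knockdown libraries and 18.8 ± 13.5 CPM in controls (SD, n = 10 and 8). The 1 gene below 0 was Ccnd2, a G1 cyclin, at -0.77 ± 0.31 with an unadjusted p of 0.0267 (limma adjusted p = 0.228), lower in 7 of 8 sets and named after its value was seen. All 4 Wee1 kinases and Cdc25 phosphatases, which restrain and release Cdk1, were above 0 (median 0.69). Wee1, the kinase that inhibits Cdk1, averaged 36.1 ± 17.1 CPM in knockdown libraries and 16.2 ± 9.24 CPM in controls, a log2 change of 1.13 ± 0.29 (adjusted p = 0.119). Cdc25b, its opponent, was at 0.70 ± 0.22 (adjusted p = 0.169).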

How the data were processed

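Per the labels' protocols, TruSeq libraries were made from 1.3 µg of total RNA. The authors deposited 1 table of CPM (read counts scaled to a common library total) for 16383 genes, on build mm9 according to the submitters' processing notes. Not given in the sources used here were the aligner, counter, annotation, filter and strand setting. In each library 100% of the CPM values were whole multiples of 1 read within 0.01 reads, which gave the library totals and the reads used for edgeR. No 2 libraries of a group agreed within sampling noise (smallest chi-square per degree of freedom 97.8, genes with at least 20 reads).

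The tests ran on the 12931 genes that reached 1 CPM in 4 or more libraries, in limma 3.58.1 under R 4.3.3 (two-sided, trend, adjusted after Benjamini and Hochberg), on log2(CPM + 1), a scale that understates changes of low genes. The culture set was a block and each hairpin a term, and the knockdown change is the mean of the hairpin effects. Lung and liver controls were compared on line means in limma, and as separate libraries in edgeR. The pairing comes from the cell line in the labels. The deviations of knockdown libraries and their own controls from their group means correlated at -0.36 to 0.70 across genes (median 0.02, 4 of 10 above 0.1). Nothing states that sets of 1 line are separate cultures, so p-values measure only the spread between these sets. Groups follow the labels, although in line 6-2 the digits of the title codes are reversed. The fits were first tested on simulated data.

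The members, gene lists and naming rule were chosen with earlier results of these data known. Per role group the 2 members of smallest p and the 1 of largest p are given in full, with Mki67, Foxm1, Cdk1, Ccnb1 and Numa1, and the 3 of smallest p in the other comparisons. Members outside this rule are given by their estimates. A further allele of the genotype labels is not reported here. Alternatives were other pseudocounts, filters, scalings, variance estimates and blocks, leaving out sets or lines, and edgeR 4.0.16 on the recovered counts. Tables and plots used pandas 2.3.3, matplotlib 3.10.9, numpy 2.4.6 and scipy 1.17.1 in Python 3.11.15.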

Additional observations from a re-analysis of the deposited data

Results flagged for a closer look

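Within each labelled group (4 shRNA 2, 6 shRNA 1 and 8 NT control libraries), the gap between the extreme library and its nearest neighbour, over the range of the group, passed Dixon's 95% limit in 6 of 126 tests of the members and Gstt1. Chance flags about 1 in 20, which is close to the share flagged here, and the members are not independent of one another. The flags are therefore listed for checking and not as results about the members. Among the 4 shRNA 2 libraries, 42-3 second was far below the others for Aurka (66.6 CPM, the next at 164 CPM), Ube2c (103 CPM, the next at 199 CPM) and Cenpa (112 CPM, the next at 155 CPM). It is the 1 shRNA 2 library from a lung line. G45-2 was far above the other shRNA 2 libraries for Cenpf (273 CPM, the next at 149 CPM) and for Gstt1 itself (5.15 CPM, the next at 0.250 CPM). Among the 8 NT controls, 13-2 was far below the others for Pttg1, at 0.0723 CPM, which is 1 read, with the next control at 26.9 CPM.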

How the results depend on the processing

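All 41 knockdown estimates stayed above 0 under each alternative except that of Pttg1, which was -0.11 without set 13-2 and -0.18 without lines 6-3 and 13-2 (-0.11 to 0.87 over the sets left out in turn). Leaving out the 5 sets that differ in identity transcripts and 42-2 second turned the hairpin difference of Mki67 to 0.11 and of Top2a to 0.039. Without the replicate block, which ignores the pairing, knockdown called 84 genes, 5 of them members (Ckap2, Anln, Foxm1, Mki67 and Numa1), shRNA 1 called 10 genes, 1 of them a member (Ckap2), and the interaction called 2 genes. With the cell line as the replicate block, knockdown called 51 genes, 3 of them members (Ckap2, Mki67 and Numa1), and shRNA 1 called 2. With the set as block, knockdown called 5 genes and 0 without a filter, without the 5 sets, without these and 42-2 second, without lines 6-3 and 13-2, and in edgeR. Leaving out 1 set gave 0 to 8 genes and 0 to 2 members (Ckap2 and Mki67 without 42-3 first). It gave 13 (without 6-3) to 40 (without 42-3 first) members higher at an unadjusted p under 0.05, against 557 and 941 of all genes. Without lines 6-3 and 13-2 that count was 9, against 524 of all genes. For shRNA 1 leaving out 1 set gave 0 to 2 genes. The interaction called 24 genes, 41 under quantile normalization, 9 in edgeR and 0 without lines 6-3 and 13-2. Of its members, Cdc20 passed under median-ratio rescaling and quantile normalization (1 member each). Leaving out 1 set gave 0 to 48 genes, 0 to 1 members (Aurka without 6-2) and 13 to 38 members lower at an unadjusted p under 0.05, and without lines 6-3 and 13-2 that last count was 16. Lung against liver called 4 genes, 2 with a pseudocount of 0.5, 18 without a filter, 14 at a CPM of at least 5, 8 with separate control libraries and 1 in edgeR. Leaving out 1 line gave 0 to 167 genes and 1 to 30 members higher at an unadjusted p under 0.05. The cause of these moves was not tested. The interaction could not be fitted without the 5 sets, which hold every lung set. Among the members only Pttg1 in the 13-2 control was near the floor, with 1 read in a library of 13827269 reads. Gstt1 in the 42-2 second knockdown, at 0.0687 CPM, was also at 1 read.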
